A study of Mus musculus with 22 samples.

Results

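The genes of the proteasome, the protease complex that degrades ubiquitin-tagged proteins, were followed from normal mouse B cells to lymphoma. The members were the genes whose probe sets (the sets of short probes that measure a transcript on the array) carry a single symbol that starts with Psm, a letter from a to g and a digit. This took 48 genes with 85 probe sets, of 12393 genes and 22690 probe sets on the array, and 47 of the 48 passed the filter on low signal. The testis-specific alpha subunit Psma8 did not pass and has no value here. Psme2, a further interferon-induced member, has its one probe set annotated to both Psme2 and Psme2b, so it was not used. Psmc3ip and Psme3ip1 meet the symbol rule but encode binding partners and not subunits.

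The series profiled B cells during lymphoma development driven by Myc on 22 MOE430A arrays. All mice were C57Bl/6. The wild type group (4 arrays) held B220+ B cells of mice without the transgene. The premalignant group (5 arrays) held B220+ B cells of Eμ-Myc littermates, in which Myc is driven by the immunoglobulin heavy chain enhancer and which had no lymphoma yet. The malignant group (13 arrays) held lymphomas, each from a separate Eμ-Myc mouse. An age of 4 to 6 weeks is given for all 3 groups in the labels, whereas the design text gives it for the littermates and not for the lymphoma mice. The protocol allows bone marrow or spleen as the source and magnetic beads against B220 or IgM, and it does not say which was used for which array. The labels call the arrays biological replicates, but only for the lymphomas is it stated that each came from a different mouse, so the p-values measure the spread between these samples.

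The 20S core particle is a barrel of outer alpha rings and inner beta rings, and the proteolytic sites sit on the beta subunits Psmb5, Psmb6 and Psmb7. Interferon-gamma and constitutive expression in immune cells give 3 replacements, Psmb8 for Psmb5, Psmb9 for Psmb6 and Psmb10 for Psmb7, which form the immunoproteasome, and the 11S activator built from Psme1 and Psme2; together they favour peptides that fit major histocompatibility complex (MHC) class I. The 19S particle caps the barrel, and its ATPases (Psmc genes) unfold substrates. Its other subunits (most Psmd genes) include those that bind and remove ubiquitin. Psmg genes encode chaperones that build the alpha ring, and Psmd5, Psmd9 and Psmd10 encode chaperones of the 19S base.

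Psmb9 lies head to head with Tap1, a subunit of the transporter that carries peptides into the endoplasmic reticulum, and Psmb8 lies on the same chromosome close by. The sequence between the start sites of Psmb9 and Tap1 is shown because both genes fell at both steps below, and the windows of Psmb8, Psmb10 and Psmb5 because they stand for the induced and constitutive catalytic genes. All are RefSeq sequences of build GRCm38.p6. The first is the 225 bases between the start sites, chr17:34187331-34187555 on the plus strand, with Psmb9 transcribed leftward from its left end and Tap1 rightward from its right end. The others are the 250 bases before the start site, for Psmb8 at chr17:34197945-34198194 (plus strand), for Psmb10 at chr8:105938393-105938642 (minus strand) and for Psmb5 at chr14:54617996-54618245 (minus strand). Capitals mark every match, on either strand, to CACGTG (the E-box bound by Myc with Max), an interferon-response pattern (GAAA, any 2 bases, GAAA), TTCNNNGAA (the gamma-activated pattern), CCAAT, and TGACNNNGC (the antioxidant-response pattern bound by Nfe2l1 and Nfe2l2).
Psmb9 and Tap1: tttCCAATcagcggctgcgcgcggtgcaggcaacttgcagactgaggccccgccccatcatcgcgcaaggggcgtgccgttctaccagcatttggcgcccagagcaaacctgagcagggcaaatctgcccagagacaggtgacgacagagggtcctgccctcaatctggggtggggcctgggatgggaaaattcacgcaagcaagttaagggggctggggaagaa
Psmb8: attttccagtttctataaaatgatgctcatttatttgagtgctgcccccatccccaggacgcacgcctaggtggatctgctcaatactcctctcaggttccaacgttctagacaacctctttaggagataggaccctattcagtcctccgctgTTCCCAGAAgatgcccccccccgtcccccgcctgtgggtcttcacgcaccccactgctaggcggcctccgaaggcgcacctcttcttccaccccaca
Psmb10: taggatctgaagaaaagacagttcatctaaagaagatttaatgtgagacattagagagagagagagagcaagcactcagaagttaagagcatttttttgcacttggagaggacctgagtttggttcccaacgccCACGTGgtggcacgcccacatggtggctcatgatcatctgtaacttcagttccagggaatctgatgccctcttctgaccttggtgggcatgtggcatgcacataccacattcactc
Psmb5: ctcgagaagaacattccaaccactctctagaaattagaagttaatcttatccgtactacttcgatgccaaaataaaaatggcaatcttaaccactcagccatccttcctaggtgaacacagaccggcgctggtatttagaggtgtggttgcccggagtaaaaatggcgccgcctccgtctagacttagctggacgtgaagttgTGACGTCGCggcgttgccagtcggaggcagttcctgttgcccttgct
The match between Psmb9 and Tap1 is CCAAT, that of Psmb8 is TTCNNNGAA, that of Psmb10 is CACGTG and that of Psmb5 is TGACNNNGC, and no matches overlap. Of the 48 members, 40 have an entry in the RefSeq table. With Psme2 and Psmb11 added, 42 proteasome genes had a 250-base window to search, against 27025 genes in all. CACGTG was found in 4 of the 42 (Psmd9, Psmb10, Psma4 and Psme3), against 6.05% of all windows. TGACNNNGC was found in 5 of the 42, namely Psmb5, Psmb6, Psmd12, Psmc6 and Psmd9, against 10.1% of all. TTCNNNGAA was found in 2 of the 42 (Psmb8 and Psmg1), against 7.18%, and the interferon-response pattern in 3 (Psmd4, Psmd9 and Psmb3), against 3.04%. CCAAT was found in 15 of the 42, against 34.5%. These matches describe letters and not binding.

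Levels below are log2 of the GCRMA intensity, a background-corrected and normalised probe-set signal. A step of 1 on this scale is a doubling, and levels of different genes are not compared, because probe sets differ in response. The actin 3′ minus 5′ difference, a log2 measure that rises with RNA degradation, was 0.64 to 0.86 on the wild type, 0.58 to 0.81 on the premalignant and 1.29 to 2.49 on the malignant arrays. The B cell markers on the array, 6 of 7 listed, summed to intensities of 22287 to 26932 in wild type, 16212 to 20688 in premalignant and 3467 to 9117 in malignant arrays. Of these, 5 lay above log2 4 on every array and Pax5 below it on every array. Stroma and endothelium markers (7 of 7 on the array) summed to 256 to 291, 129 to 189 and 475 to 3685, and 5 of the 7 lay below log2 4 on every wild type and premalignant array, against 1, Cdh5, on every malignant array. T cell markers (7 of 8) summed to 59.3 to 67.7, 56.4 to 75.2 and 50.5 to 79.0, and natural killer cell markers (5 of 6) to 43.5 to 170, 34.6 to 390 and 27.1 to 30.7. The T cell sum left out another Cd4 probe set, the one that passed the filter. In log2 it read 2.0 to 2.4 on the wild type and premalignant arrays. Over the lymphomas it read 2.1 to 6.7, highest in lymphomas 3, 6 and 7 (6.72, 6.50 and 5.92). Monocyte and macrophage markers (9 of 9) summed to 874 to 2296, 429 to 1781 and 824 to 4715, and neutrophil markers (8 of 8) to 71.3 to 635, 442 to 918 and 65.6 to 6032. Plasma cell markers (5 of 6) summed to 2345 to 4262, 732 to 2856 and 127 to 638, dendritic cell markers (4 of 6) to 33.5 to 50.5, 34.1 to 56.3 and 28.8 to 47.5, and erythroid markers (4 of 6) to 22.1 to 384, 21.8 to 733 and 20.2 to 22.9. The malignant arrays therefore differed from the others in RNA ends and in marker levels as well as in stage, and the part of either in the results was not tested. In bulk samples, fewer cells of a type and less RNA per cell cannot be told apart.

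Between wild type and lymphoma the catalytic subunits of the core particle moved in opposite directions by kind. The constitutive Psmb5, Psmb6 and Psmb7 were all higher in lymphoma, and the interferon-induced Psmb8, Psmb9 and Psmb10 were all lower. Psmb9 fell at both steps, and the premalignant cells stood between wild type and lymphoma on the mean of every induced minus constitutive difference.

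Psmb9 replaces the caspase-like subunit Psmb6. It read 8.82, 8.79, 8.79 and 8.87 on wild type arrays 1 to 4, and 8.47, 8.49, 8.31, 8.18 and 7.60 on premalignant arrays 1 to 5. Over the 13 lymphomas the lowest Psmb9 level was 6.46, the median 7.03 and the highest 8.00. The wild type arrays lay within 0.076 of each other and above all others, and the premalignant and malignant ranges overlapped only through premalignant array 5. Psmb9 changed by -0.61 ± 0.18 (log2, SE) from wild type to premalignant (1.52-fold lower, limma adjusted p = 0.032). It changed by -1.02 ± 0.24 from premalignant to lymphoma (2.03-fold lower, limma adjusted p = 0.0021). Against wild type the lymphomas were lower by -1.63 ± 0.25, or 3.09-fold (limma adjusted p = 1.7e-05). The first of these calls was lost on leaving out any one of the 4 wild type arrays or premalignant array 3 or 4, and with the spike centring described below. It was also lost without the signal filter, in 1 fit over all 3 groups and with replicate number as a block (limma adjusted p = 0.059, 0.126 and 0.075). The calls of the other 2 changes held.

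Psmb8 replaces the chymotrypsin-like subunit Psmb5. It read 9.98, 9.90, 9.80 and 10.04 in wild type and 9.81, 9.42, 9.29, 9.40 and 9.07 in premalignant cells. In lymphoma the lowest Psmb8 level was 8.66, the median 9.12 and the highest 9.66. All lymphomas lay below all wild type arrays, while premalignant array 1 overlapped the lowest wild type array. The change was -0.53 ± 0.16 from wild type to premalignant (limma adjusted p = 0.028), a call lost without wild type array 1, 2 or 4 or premalignant array 3, 4 or 5. That call was also lost with spike centring and with replicate number as a block. The Psmb8 change was -0.27 ± 0.15 from premalignant to lymphoma (limma adjusted p = 0.153, not passed) and -0.80 ± 0.15 from wild type to lymphoma (1.74-fold lower, limma adjusted p = 1.5e-04, a call lost with the spike centring described below).

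Psmb10 replaces the trypsin-like subunit Psmb7. It read 8.32, 8.58, 8.03 and 8.04 in wild type and 8.51, 7.94, 8.14, 8.05 and 7.59 in premalignant cells. In lymphoma its lowest level was 7.24, its median 7.62 and its highest 7.94. The lymphomas again lay below all wild type arrays, and the first 2 groups overlapped. Psmb10 changed by -0.20 ± 0.20 from wild type to premalignant (limma adjusted p = 0.495, not passed) and by -0.44 ± 0.14 from there to lymphoma (limma adjusted p = 0.017). From wild type to lymphoma it fell by 0.63 ± 0.14 (1.55-fold, limma adjusted p = 7.7e-04). The call of the fall from premalignant cells was lost under 4 alternatives, among them leaving out premalignant array 1. Neither fall was called with spike centring.

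Psme1, a subunit of the 11S activator, differed least from wild type among the induced members. It read 9.54, 9.86, 9.68 and 9.61 in wild type and 9.72, 9.76, 9.71, 9.79 and 9.61 in premalignant cells, and 8.80, 9.29 and 10.03 at the lowest, median and highest lymphoma. The lymphomas spread to both sides of the other groups. The only Psme1 change that passed was that from premalignant to lymphoma, -0.39 ± 0.15 (limma adjusted p = 0.044). Its call was lost under 8 alternatives, among them leaving out any premalignant array or lymphoma 1. Against wild type the lymphomas differed by -0.35 ± 0.17 (limma adjusted p = 0.086).

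**Figure D1:**
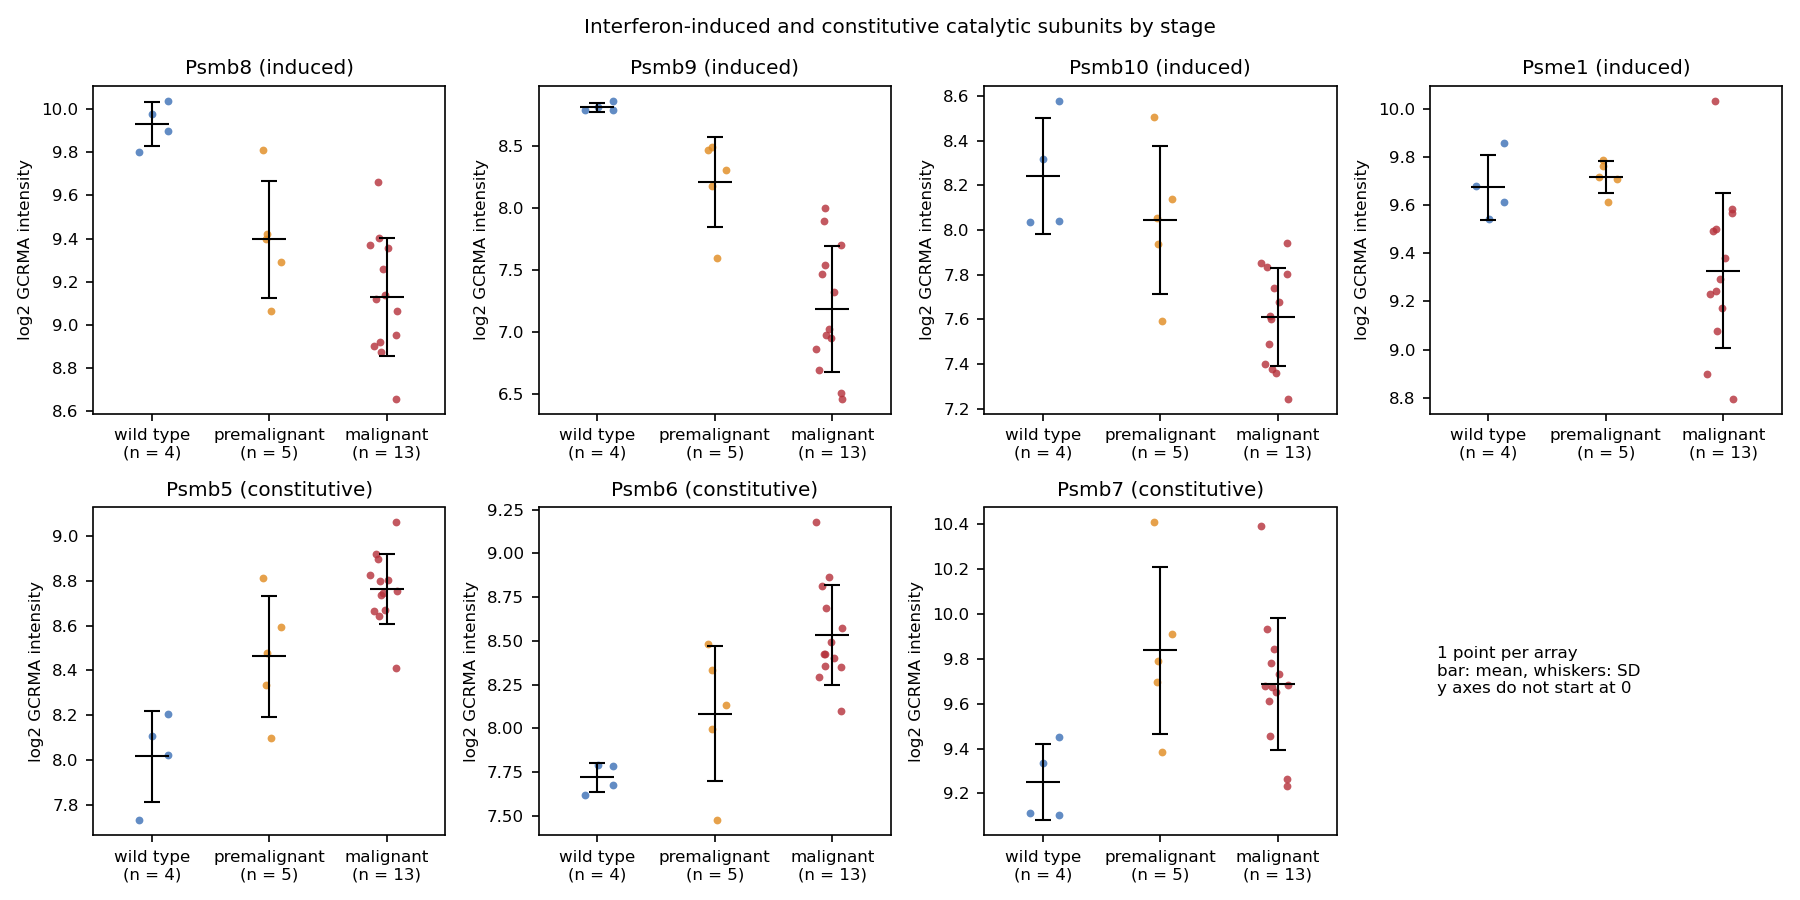
Log2 GCRMA intensity of the interferon-induced members (upper row) and the constitutive catalytic subunits (lower row) on each array, with 1 point per array, a bar at the group mean and whiskers of 1 SD, for wild type (n = 4), premalignant (n = 5) and malignant (n = 13) arrays. Psmb8, Psmb9 and Psmb10 step down and all 13 lymphomas lie below all wild type arrays, while Psmb5 and Psmb6 step up and all lymphomas lie above all wild type arrays.

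The constitutive partners went the other way. Psmb5 read 8.11, 8.02, 7.73 and 8.20 in wild type and 8.81, 8.48, 8.60, 8.33 and 8.10 in premalignant cells, with a lowest, median and highest lymphoma level of 8.41, 8.75 and 9.06. The lymphomas lay above all wild type arrays, and both groups overlapped the premalignant arrays. Psmb5 rose by 0.75 ± 0.11 from wild type to lymphoma (1.68-fold, limma adjusted p = 1.9e-05). Its change was 0.45 ± 0.17 at the first step (limma adjusted p = 0.073, not passed) and 0.30 ± 0.11 at the second (limma adjusted p = 0.041). The second call was lost under 7 alternatives, among them leaving out premalignant array 2, 4 or 5 or lymphoma 1, and centring arrays on their medians.

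Psmb6 read 7.79, 7.68, 7.62 and 7.79 in wild type, 8.48, 8.33, 8.14, 8.00 and 7.48 in premalignant cells, and 8.10, 8.42 and 9.18 at the lowest, median and highest lymphoma. Its 13 lymphoma values again lay above the wild type range, and premalignant array 5 lay below it. Psmb6 rose by 0.82 ± 0.15 from wild type to lymphoma (1.76-fold, limma adjusted p = 1.6e-04), with a change of 0.36 ± 0.19 at the first step (limma adjusted p = 0.188, not passed) and 0.45 ± 0.17 at the second (limma adjusted p = 0.034). The second call was lost under 5 alternatives, among them leaving out premalignant array 3, 4 or 5.

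Psmb7 read 9.33, 9.45, 9.11 and 9.11 in wild type, 10.41, 9.79, 9.91, 9.70 and 9.39 in premalignant cells, and 9.23, 9.68 and 10.39 at the lowest, median and highest lymphoma. All 3 groups overlapped. Psmb7 was 0.44 ± 0.16 higher in lymphoma than in wild type (limma adjusted p = 0.025). That call was lost under 3 alternatives, among them leaving out wild type array 3 or 4. Psmb7 was 0.59 ± 0.20 higher in premalignant than in wild type cells (limma adjusted p = 0.047). This second call was lost without any one of the 4 wild type arrays or without premalignant array 1, 2, 3 or 4. The same call was lost without the signal filter and with spike centring. From premalignant cells to lymphoma the change was -0.15 ± 0.17 (limma adjusted p = 0.488, not passed).

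Because an induced subunit and its partner were read on the same array, their difference is free of any shift equal for both probe sets. Factors that act unequally on the probe sets remain in it, and the part of RNA ends and marker levels was not tested. The size of such a difference has no meaning across probe sets, and only its change between groups is read. All 3 differences fell from wild type to premalignant cells and from wild type to lymphoma, and those of Psmb8 and Psmb9 fell again from premalignant cells to lymphoma. The 9 comparisons were tested together by an exact two-sided permutation test over arrays, with Benjamini-Hochberg values over the 9.

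For Psmb9 over Psmb6 the log2 difference was 1.02, 1.11, 1.17 and 1.08 on wild type arrays 1 to 4 and -0.012, 0.16, 0.17, 0.19 and 0.12 on premalignant arrays 1 to 5. In lymphoma its lowest value was -2.31, its median -1.54 and its highest -0.35. No 2 groups overlapped. The mean went from 1.10 ± 0.062 (SD, n = 4) to 0.13 ± 0.080 (SD, n = 5) and to -1.35 ± 0.65 (SD, n = 13). The first change was -0.97 (1.96-fold, exact permutation p = 0.016, adjusted 0.018). The second was -1.47 (2.78-fold, exact permutation p = 2.3e-04, adjusted 0.0015), and wild type to lymphoma gave -2.44 (5.44-fold, exact permutation p = 8.4e-04, adjusted 0.0015). Each of these p-values is the smallest that the two-sided test can give with these arrays. It records that the groups did not overlap and not by how much, and the same holds where these p-values recur below.

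For Psmb8 over Psmb5 the difference was 1.87, 1.88, 2.07 and 1.83 in wild type and 1.00, 0.95, 0.69, 1.06 and 0.97 in premalignant cells. In lymphoma it ranged from -0.40 to 0.77 with a median of 0.47. The wild type arrays stood above all others, and the premalignant and malignant ranges met between 0.69 and 0.77. The means of 1.91 ± 0.11, 0.93 ± 0.14 and 0.37 ± 0.32 (SD) gave a first change of -0.98 (exact permutation p = 0.016, adjusted 0.018). The second was -0.57 (exact permutation p = 7.0e-04, adjusted 0.0015), and that from wild type to lymphoma -1.55 (exact permutation p = 8.4e-04, adjusted 0.0015).

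For Psmb10 over Psmb7 the difference was -1.01, -0.87, -1.08 and -1.06 in wild type and -1.90, -1.85, -1.77, -1.64 and -1.79 in premalignant cells, with a lymphoma range of -2.54 to -1.29 and a median of -2.12. The wild type arrays again stood apart from both other groups. The change was -0.78 from wild type to premalignant (exact permutation p = 0.016, adjusted 0.018) and -1.07 from wild type to lymphoma (exact permutation p = 8.4e-04, adjusted 0.0015). From premalignant cells to lymphoma it was -0.28 ± 0.11 (SE), and the exact permutation test did not pass (p = 0.114, adjusted 0.114). Within the premalignant group the 3 differences had SDs of 0.14, 0.080 and 0.098, against 0.27, 0.36 and 0.33 for Psmb8, Psmb9 and Psmb10 alone.

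**Figure D2:**
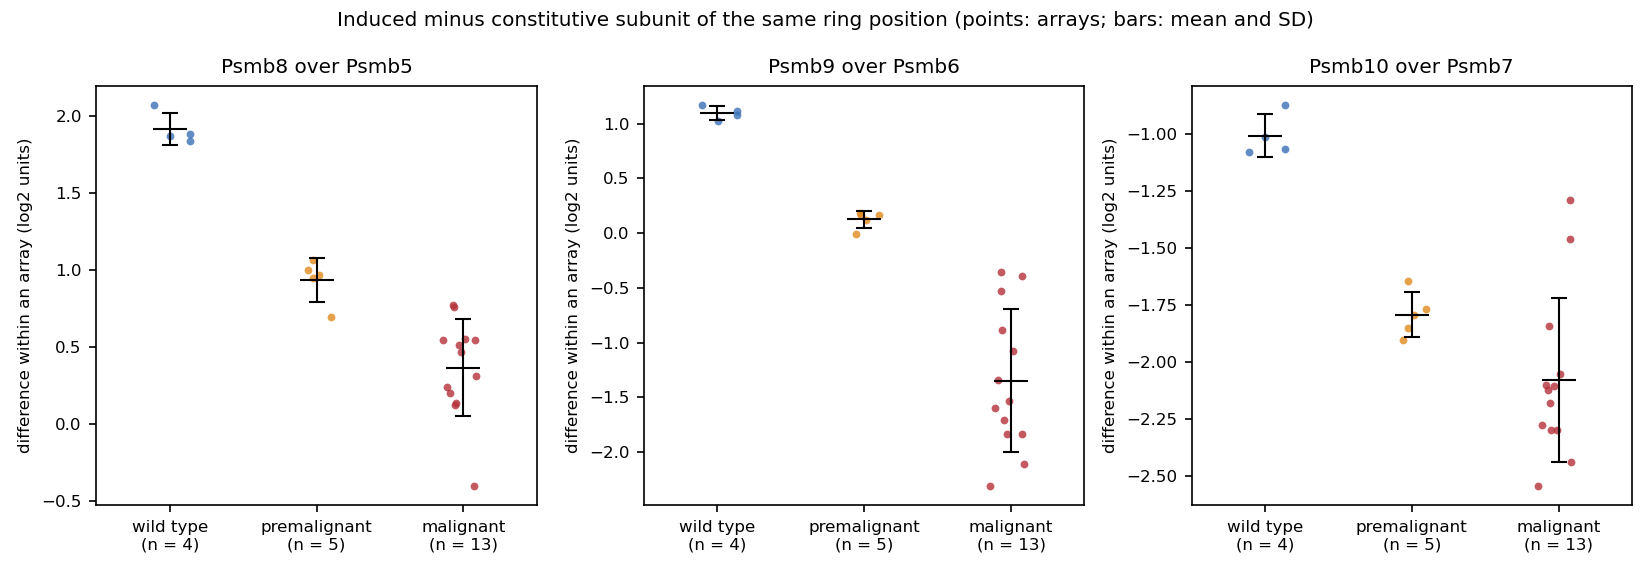
Log2 level of each interferon-induced catalytic subunit minus that of its constitutive partner on the same array, with 1 point per array, a bar at the group mean and whiskers of 1 SD. All 3 differences are lower on every premalignant and malignant array than on every wild type array, and the lymphomas spread more widely than the other groups.

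From wild type to premalignant cells more proteasome genes rose than fell. Of the 47 members tested, 11 rose and 2 fell, where 26.8% of all 6437 genes were called, 12.7% higher and 14.1% lower. The median change was 0.42 over the members and -0.054 over all genes. The 2 that fell were Psmb9 and Psmb8. Of the 31 constitutive 20S and 19S subunits, called core subunits here, 7 rose and none fell in limma, and 30 had a fitted change above 0. The groups did not overlap for 10 of the 47 members, against 24.1% of all genes.

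The count of core subunits depended on single arrays. Premalignant array 5 had the lowest level of its group for 19 of the 31, and array 1 had the highest for 20. The mean over the 31, set against the wild type mean, was 0.63, 0.35, 0.55, 0.44 and 0.12 on premalignant arrays 1 to 5 and -0.090 to 0.069 on the wild type arrays. All premalignant arrays thus stood above the wild type range on this mean. Without premalignant array 5, 16 core subunits rose. Without wild type array 1, 3 or 4, or premalignant array 3 or 4, 4 rose. With arrays centred on hybridisation spikes, labelled RNAs added to the hybridisation mix, whose mean level ranged from 8.47 to 10.2 over the 22 arrays, 1 rose and no induced member fell, and the median over all genes went from -0.054 to 0.20 and that over the core subunits from 0.42 to 0.68. Over all genes, this centring gave 455 higher and 105 lower calls in place of 818 and 907.

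By role, 2 of 7 alpha ring genes rose at this step, none of the 4 structural beta genes, 1 of 3 constitutive catalytic genes (Psmb7), 1 of 6 19S ATPases, 3 of 11 other 19S subunits and 2 of 4 alpha ring chaperones. Psmd8, a subunit of the 19S lid, showed the largest rise. It read 7.99, 7.76, 7.95 and 7.57 in wild type, 9.28, 8.67, 9.18, 9.24 and 8.93 in premalignant cells, and 8.49, 8.84 and 9.47 at the lowest, median and highest lymphoma. Both Eμ-Myc groups lay above the wild type range. Psmd8 rose by 1.24 ± 0.16 (2.37-fold, limma adjusted p = 4.9e-04) at the first step, and from there to lymphoma it changed by -0.17 ± 0.16 (limma adjusted p = 0.401, not passed).

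Psmg1, which with Psmg2 forms a chaperone of the alpha ring, rose by 0.90 ± 0.23 at the first step (limma adjusted p = 0.015). Psma5, an alpha ring subunit, read 8.05, 7.59, 7.80 and 7.87 in wild type and 8.92, 8.38, 8.68, 8.63 and 8.57 in premalignant cells. These ranges did not overlap, and Psma5 rose by 0.81 ± 0.15 (1.75-fold, limma adjusted p = 0.0029). The rises of Psmg1 and Psmd8 were called under all alternatives tried, spike centring included, and that of Psma5 under all but spike centring. The other members that rose were Psme4 (0.76), which encodes a nuclear activator, Psmg3 (0.75), Psmd7 (0.75), Psma4 (0.65), Psmb7, Psmc1, Psmd9 and Psmd14. Of these, Psme4, Psmd7 and Psma4 stayed called whichever array was left out. With spike centring the same 3 calls were lost (limma adjusted p = 0.068, 0.084 and 0.123). Those of Psme4 and Psmd7 were also lost in 1 fit over all 3 groups (limma adjusted p = 0.053 and 0.059). The calls of Psmg3, Psmb7, Psmc1, Psmd9 and Psmd14 were lost under 9, 10, 9, 13 and 8 alternatives, each among them without at least 1 array.

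From premalignant cells to lymphoma the members split further. Of 47, 17 rose and 6 fell, where 42.1% of all genes were called, 24.8% higher and 17.3% lower. The median change was 0.21 over the members and 0.089 over all genes. Of the 31 core subunits 13 rose and 1 (Psmb2) fell, and of the 4 induced members none rose and Psmb9, Psmb10 and Psme1 fell. Groups did not overlap for 4 members, Psma6, Psmc5, Psmd2 and Psmd11, where 12.2% of all genes showed no overlap. With spike centring 8 core subunits rose, none fell, and 1 induced member fell, Psmb9, while the median over all genes moved to 0.22.

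Psmd3, a lid subunit of the 19S particle, had the largest rise at this step. It read 6.94, 6.53, 5.85 and 5.73 in wild type, 7.85, 6.84, 6.92, 6.99 and 6.33 in premalignant cells, and 7.71, 8.05 and 8.73 at the lowest, median and highest lymphoma. Only premalignant array 1 reached the lymphoma range. The rise was 1.12 ± 0.20 (2.17-fold, limma adjusted p = 1.8e-04).

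Psmg3 and Psmg1, both chaperones of the alpha ring, followed. Psmg3 read 5.58, 5.25, 4.99 and 4.79 in wild type, 6.54, 5.60, 6.12, 5.72 and 5.53 in premalignant cells, and 6.24, 6.96 and 7.67 at the lowest, median and highest lymphoma. Psmg1 read 5.91, 6.38, 6.05 and 5.95 in wild type, 7.52, 6.72, 7.18, 7.12 and 6.34 in premalignant cells, and 7.12, 7.96 and 8.32 at the same 3 points. For both genes every lymphoma lay above every wild type array, with the premalignant arrays between and overlapping. Psmg3 rose by 1.08 ± 0.20 (limma adjusted p = 3.0e-04) and Psmg1 by 0.94 ± 0.18 (limma adjusted p = 4.7e-04) at the second step.

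Psma6, an alpha ring subunit, separated the lymphomas from both other groups. It read 9.52, 9.07, 9.48 and 9.46 in wild type, 9.58, 9.62, 9.93, 10.08 and 9.88 in premalignant cells, and 10.35, 10.55 and 11.04 at the lowest, median and highest lymphoma. It rose by 0.79 ± 0.13 from premalignant cells to lymphoma (1.73-fold, limma adjusted p = 6.0e-05).

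The other members whose lymphomas lay above all premalignant arrays belong to the 19S particle. Psmd2, a scaffold of its base, read 7.74, 7.76, 7.60 and 7.72 in wild type, 8.18, 8.15, 8.11, 8.09 and 7.67 in premalignant cells, and 8.45, 8.73 and 9.24 at the lowest, median and highest lymphoma. The lymphomas stood clear of both other groups, and Psmd2 rose by 0.68 ± 0.13 at this step (limma adjusted p = 3.9e-04). The ATPase Psmc5 rose by 0.60 ± 0.12 (limma adjusted p = 6.3e-04) and the lid subunit Psmd11 by 0.61 ± 0.10 (limma adjusted p = 1.2e-04). Psmd11 ran from 7.91 to 9.03 over the wild type and premalignant arrays and from 9.10 to 9.51 over the lymphomas.

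The falls outside the induced group were Psmb2, Psmd10 and Psmd5. Psmb2, a structural beta subunit, read 7.45, 7.98, 7.99 and 7.44 in wild type, 9.10, 7.66, 8.47, 8.34 and 8.12 in premalignant cells, and 7.35, 7.54 and 8.23 at the lowest, median and highest lymphoma. Its lymphoma levels lay near those of wild type, with a difference of -0.12 ± 0.15 (limma adjusted p = 0.519). From premalignant cells it fell by 0.74 ± 0.17 (limma adjusted p = 0.0021), a call lost with spike centring. Psmd10, a 19S chaperone known as gankyrin, read 6.17, 5.69, 6.18 and 5.98 in wild type, 4.95, 6.18, 6.04, 5.71 and 5.67 in premalignant cells, and 3.88, 5.08 and 5.36 at the lowest, median and highest lymphoma. Only premalignant array 1 lay within the lymphoma range. Psmd10 fell by 0.73 ± 0.20 (limma adjusted p = 0.0068), a call lost with spike centring (limma adjusted p = 0.097). Psmd5 fell by 0.32 ± 0.12 (limma adjusted p = 0.039). Its call was lost under 6 alternatives, among them leaving out premalignant array 1, 2 or 3 and spike centring.

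From wild type to lymphoma 30 of the 47 members rose and 5 fell, where 61.5% of all genes were called, 31.8% higher and 29.7% lower. The median change was 0.63 over the members and 0.041 over all genes. Of the 31 core subunits 25 rose and none fell in limma, with a median change of 0.72. Groups did not overlap for 25 members, 18 of them core subunits, against 33.7% of all genes. Spike centring moved the median over all genes to 0.43 and that over the core subunits to 1.11, and called 1 induced member lower, Psmb9. Over all genes it gave 2349 higher and 788 lower calls in place of 2045 and 1911. The comparisons share their arrays, so this one repeats the changes of both steps.

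All 6 ATPases rose, 9 of 11 other 19S subunits, 4 of 7 alpha ring genes, 3 of 4 structural beta genes and 3 of 4 alpha ring chaperones. The largest rises were those of Psmg1 (1.84 ± 0.17, 3.58-fold, limma adjusted p = 4.2e-08), Psmd3 (1.84 ± 0.21, 3.57-fold, limma adjusted p = 6.0e-07) and Psmg3 (1.83 ± 0.21, 3.55-fold, limma adjusted p = 5.9e-07). The members that fell were Psmb9, Psmd10 (-1.02 ± 0.19, limma adjusted p = 1.5e-04), Psmb8, Psmb10 and Psmd5 (-0.40 ± 0.13, limma adjusted p = 0.014). The 19S chaperones thus split, since Psmd9 rose while Psmd5 and Psmd10 fell. The calls of Psmb8, Psmb10, Psmd10 and Psmd5 were lost with spike centring. That of Psmd5 was lost under 4 alternatives, leaving out wild type array 2 among them.

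Psme3 and Psme4 encode nuclear activators that interferon does not induce. Psme3, of the same 11S family as Psme1, read 6.61, 5.89, 5.65 and 5.90 in wild type, 6.96, 7.83, 6.45, 6.91 and 6.31 in premalignant cells, and 6.60, 7.33 and 8.06 at the lowest, median and highest lymphoma. It was 1.29 ± 0.21 higher in lymphoma than in wild type (2.45-fold, limma adjusted p = 2.8e-05), although the groups met at 6.60 and 6.61. Psme4 read 6.99, 6.97, 7.14 and 7.03 in wild type, 8.09, 7.34, 7.88, 7.84 and 7.80 in premalignant cells, and 6.53, 7.13 and 8.31 at the same 3 points. Every premalignant array thus lay above the wild type arrays, and the lymphomas spread over both. Psme4 rose by 0.76 ± 0.16 at the first step (limma adjusted p = 0.0055) and differed from wild type by 0.20 ± 0.25 in lymphoma (limma adjusted p = 0.501, not passed). The inhibitor Psmf1 was not called in any comparison.

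Several core subunits did not pass. Psma1 and Psma2, of the alpha ring, Psma3, also of that ring, Psmb2, the ubiquitin receptor Psmd4 and the lid subunit Psmd7 were not called between wild type and lymphoma. Psmd7 had the widest spread of all members among the lymphomas, from 5.50 to 7.75, and its change of 0.60 ± 0.26 (limma adjusted p = 0.052) was called once lymphoma 1, the highest, was left out. Psmc6, an ATPase, was the one gene with probe sets called in both directions. Its brightest probe set, the one used, rose by 0.69 (limma adjusted p = 0.0025 over probe sets) and another by 0.71 (limma adjusted p = 0.032) from wild type to lymphoma. The third, whose group means lay at 4.04 in wild type and 3.68 in lymphoma, near the filter level, fell by 0.35 (limma adjusted p = 0.014).

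**Figure D3:**
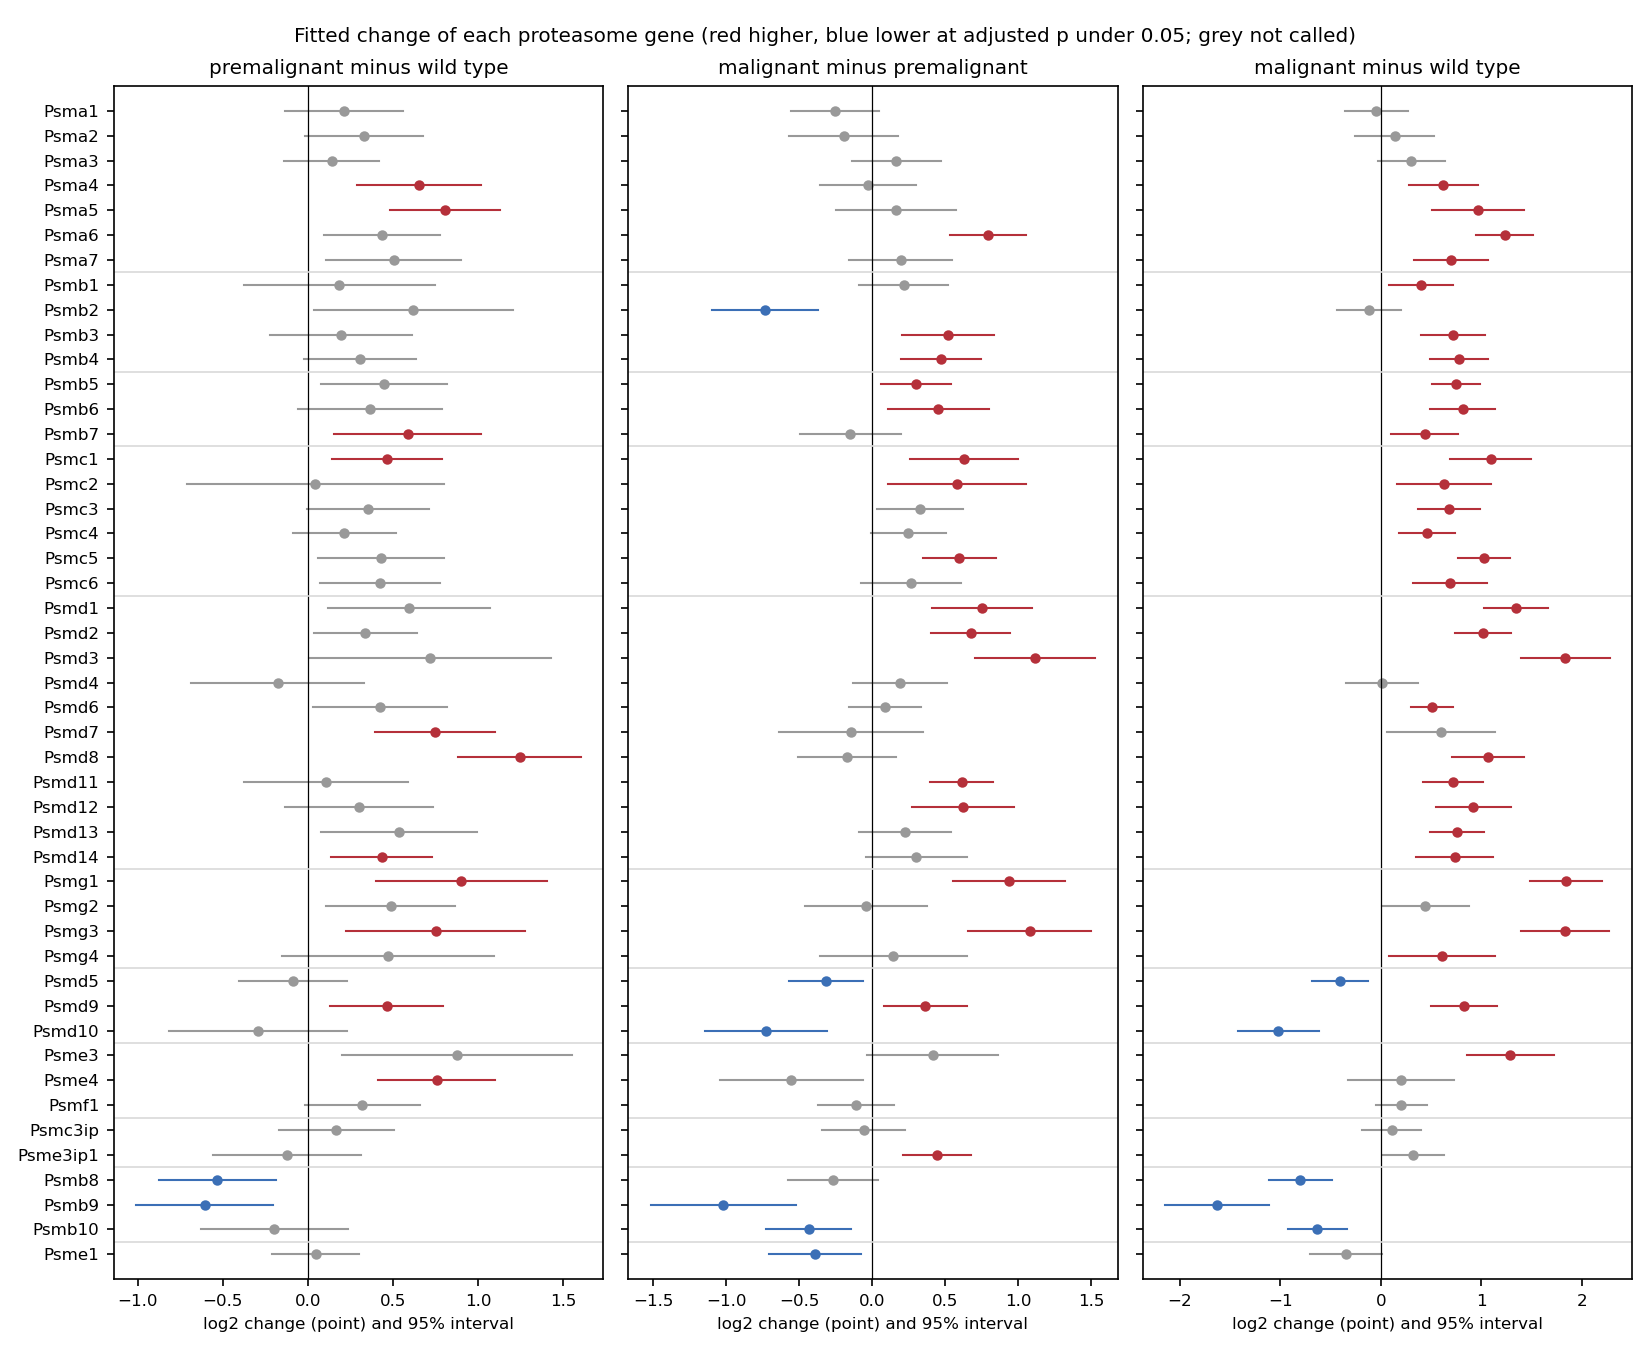
Fitted log2 change of each of the 47 proteasome genes (points) with its 95% interval (lines) in the 3 comparisons, ordered by role, in red where limma called it higher, blue where lower and grey where not called. The induced genes at the bottom lie on the left of 0 where called, and most core subunits lie on the right, most clearly between malignant and wild type arrays.

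Beyond the members, 16 of 23 listed accessory and regulatory genes were tested. At the first step 3 rose and none fell in limma, where 12.7% of all genes were called higher, namely Uchl5 (1.15 ± 0.17) and Usp14 (1.06 ± 0.24), deubiquitinases that dock on the 19S particle, and Rad23b (0.71 ± 0.19), which shuttles ubiquitinated proteins to it. From there to lymphoma 9 rose and none fell (24.8% of all genes rose), with the largest changes in the ubiquilin Ubqln4 (1.33 ± 0.18), in Ecpas (1.17 ± 0.31), which binds the assembled 26S particle, and in Usp14 (0.76 ± 0.21). Across both steps 8 rose and none fell (31.8% of all genes rose), led by Ubqln4 (1.91 ± 0.19), Uchl5 (1.85 ± 0.22) and Usp14 (1.82 ± 0.22). Pomp, the maturation factor of the 20S particle, was 0.85 ± 0.16 higher in lymphoma than in wild type (limma adjusted p = 1.2e-04). Nfe2l1, a transcription factor of proteasome genes, changed by -0.54 ± 0.20 (limma adjusted p = 0.070, not passed) and then by 0.39 ± 0.15 (limma adjusted p = 0.046). The first Nfe2l1 change was called without premalignant array 1 (limma adjusted p = 0.011), and the second was lost under 8 alternatives, among them leaving out premalignant array 2, 3, 4 or 5 or lymphoma 1. Of the 9 second-step rises of the list, 2 were called under all alternatives, those of Ubqln4 and Ecpas, and the rise of Rad23b at the first step was lost with spike centring and without wild type array 1.

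Most calls among the genes that load proteasome products onto MHC class I were falls. Of 9 peptide loading genes tested, 2 rose and 4 fell from wild type to premalignant, none rose and 5 fell from there to lymphoma, and 1 rose and 6 fell from wild type to lymphoma, where 14.1%, 17.3% and 29.7% of all genes were called lower. None of the 6 calls at the first step held under all alternatives: those of Tap1, Tap2 and Canx were lost with spike centring alone, that of Erap1 under 3 alternatives, that of Tapbpl under 9 and that of Tapbp under 11. Of the 5 falls at the second step 4 held under all, and of the 6 falls from wild type to lymphoma 5 did. Tap1 read 8.81, 8.96, 8.46 and 8.36 in wild type, 7.85, 7.71, 7.52, 7.80 and 7.21 in premalignant cells, and 5.60, 6.37 and 7.84 at the lowest, median and highest lymphoma. The wild type arrays lay above all others. Tap1 changed by -1.03 ± 0.18 (limma adjusted p = 0.0023) and then by -1.17 ± 0.27 (limma adjusted p = 0.0021). The falls from wild type to lymphoma were largest for Tapbp, or tapasin, at -2.21 ± 0.22, Tap1 at -2.20 ± 0.31 and the MHC class I light chain B2m at -1.72 ± 0.23. The gene that rose was the chaperone Canx (0.58 ± 0.16).

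Of 12 interferon signalling genes tested, none rose, and 7, 10 and 12 fell in the 3 comparisons, where 14.1%, 17.3% and 29.7% of all genes were called lower. Under all alternatives 1, 5 and 9 of these falls held, and at the second step those of Irf8, Irf2, Jak1, Ifngr1 and Ifnar2 were lost under 4 to 6 alternatives each, spike centring among them. Irf1, a transcription factor that induces Psmb9 and Tap1, read 9.21, 9.11, 8.88 and 8.81 in wild type, 7.93, 7.70, 6.90, 7.81 and 7.53 in premalignant cells, and 5.79, 6.39 and 6.95 at the lowest, median and highest lymphoma. It changed by -1.43 ± 0.21 (limma adjusted p = 8.1e-04) and then by -1.10 ± 0.20 (limma adjusted p = 3.0e-04). Irf8, a factor of lymphoid and myeloid cells, changed by -1.15 ± 0.15 and then by -0.73 ± 0.24, and the second call was lost without premalignant array 1. Irf9 fell by 2.34 ± 0.17 at the second step, and Stat2, whose lymphoma mean lay below the filter level of log2 4, was at least 5.11-fold lower in lymphoma than in wild type.

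The same lymphomas were not extreme for every induced gene. Psmb9, Psmb10 and Psme1 were lowest in lymphoma 5 and Psmb8 in lymphoma 12, while Psmb8 and Psme1 were highest in lymphoma 11, Psmb9 in lymphoma 13 and Psmb10 in lymphoma 2. Of 18 relations computed across the 13 lymphomas, 3 passed after Benjamini-Hochberg adjustment of Pearson's r. Tap1 went with Psmb9 (r = 0.75, permutation p = 0.0027, adjusted 0.038; Spearman's rho = 0.69, permutation p = 0.012, adjusted 0.114) and with Psme1 (r = 0.73, permutation p = 0.0042, adjusted 0.038; rho = 0.62, permutation p = 0.026, adjusted 0.114). Irf1 went with Psmb10 (r = 0.71, permutation p = 0.0078, adjusted 0.047; rho = 0.63, permutation p = 0.025, adjusted 0.114). Without the 2 arrays farthest from the median of the first gene, r fell to 0.63, 0.42 and 0.62, and with 11 arrays these relations no longer passed. None of the 18 rank correlations passed adjustment. Among the induced genes themselves r ranged from 0.0085 for Psmb8 with Psmb10 to 0.65 for Psmb9 with Psme1 (permutation p = 0.015, adjusted 0.053). The actin 3′ minus 5′ difference went with Psmb8 at r = -0.67 (permutation p = 0.013, adjusted 0.053) and with Psmb9 at r = -0.46 (permutation p = 0.116, adjusted 0.298).

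**Figure D4:**
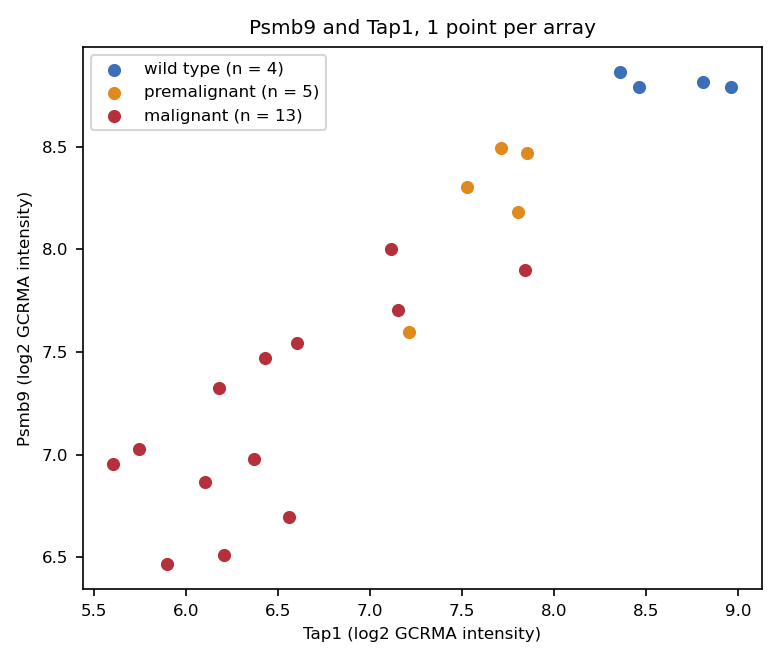
Log2 GCRMA intensity of Psmb9 against that of Tap1, its head-to-head neighbour, with 1 point per array in the colour of its group. The wild type arrays lie at the upper right, the premalignant arrays below them, and the 13 lymphomas spread over the lower left, where r was 0.75.

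Among the lymphomas the members varied about as much as other genes. The median SD was 0.29 over the 47 members, from 0.13 for Psmd6 to 0.53 for Psmd7, against 0.33 over all 6437 genes. Psmb9, with an SD of 0.51, was the third widest after Psmd7 and Psme4. The mean over the 31 core subunits lay 0.42 to 1.13 above the wild type mean over the 13 lymphomas, lowest in lymphoma 2 and highest in lymphoma 1. The mean over the 3 induced catalytic subunits lay between -1.40 in lymphoma 5 and -0.65 in lymphoma 11. Every lymphoma therefore stood above the wild type arrays on the first mean and below them on the second.

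**Figure D5:**
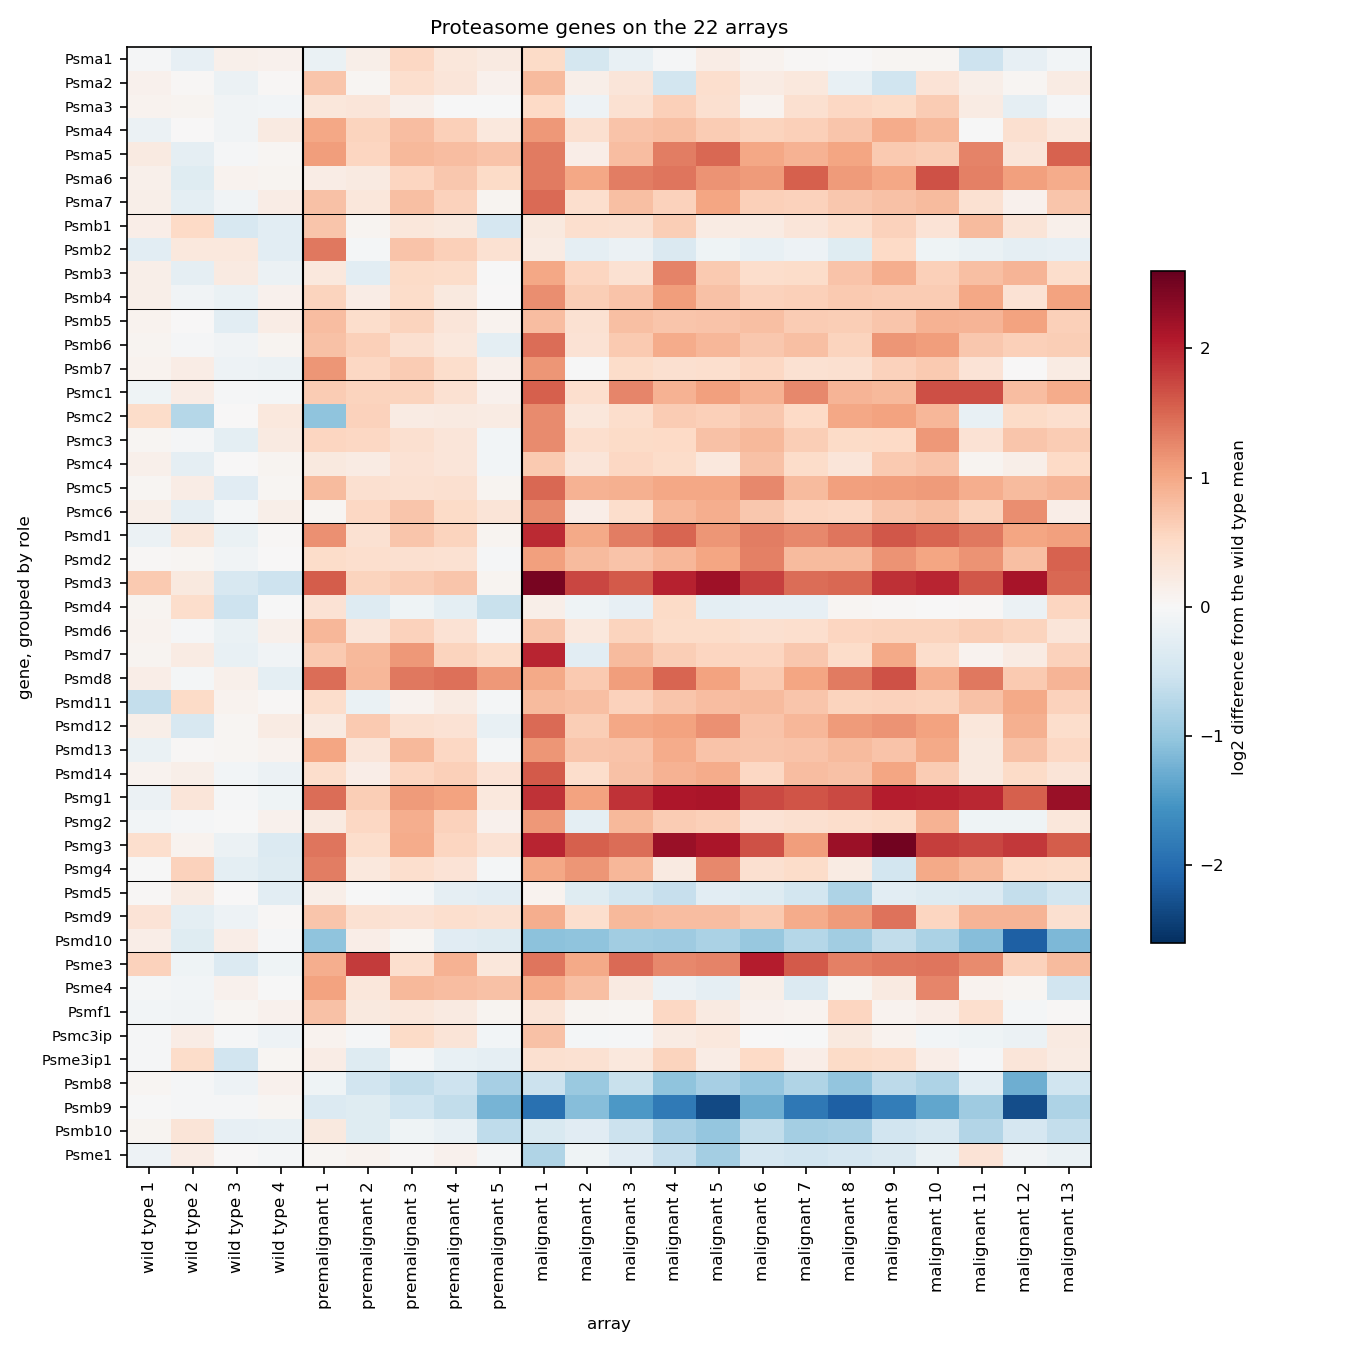
Log2 difference of each proteasome gene (rows, grouped by role) from its wild type mean on each of the 22 arrays (columns), red where higher and blue where lower. Most rows redden from left to right, with premalignant array 5 paler than its group and malignant array 1 darker, while Psmb8, Psmb9, Psmb10, Psmd5 and Psmd10 turn blue.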

How the data were processed

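The deposited values are GCRMA intensities on a linear scale for 22 arrays, per the submitters' processing notes. The version of GCRMA, and joint or separate normalisation of the arrays, are stated in none of the sources used here. No scanner files were used, and the precision is limited by the number of arrays. The log2 of the deposited intensity was taken. Probe sets were named from the platform annotation (20380 of 22690 carry 1 symbol). Each gene took its probe set of highest mean, kept where log2 exceeded 4 on at least 4 arrays (6437 genes). For each comparison, limma 3.58.1 (R 4.3.3) was run on the arrays of its groups alone, with Benjamini-Hochberg adjustment over all 6437 genes and a threshold of 0.05. The script was tested on simulated data. For folds, means under log2 4 were raised to 4 and the fold is given as "at least". Differences within arrays were tested by exact permutation, and relations by 100000 resamples (scipy 1.17.1).

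The members and the gene lists were chosen with earlier results of these data known. Genes are named by role: the induced members and their partners, the 3 largest rises and falls among the other members called in a comparison, members with probe sets called both ways, up to 3 genes each way of each further list, and the 10 genes most like the induced members. Other members named (Psmd2, Psmc5, Psmd11, Psme3, Psme4, Psmd7 and those given without a level) were chosen after their values were seen. The design foresaw 5 induced members and the regulator Nlrc5; Psme2 and Nlrc5 have no probe set with a single symbol and were left out. Replicate numbers were not taken as pairs. Alternatives changed the filter, the probe set rule, the scaling, the fit and the arrays left out.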

Additional observations from a re-analysis of the deposited data

Results flagged for a closer look

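Of the member values, 4 lay far from the rest of their group by Dixon's test, of 100 groups tested, where chance gives about 1 in 20. Psmd2, a 19S scaffold, read 7.67 on premalignant array 5, against 8.09 on the nearest array of that group. Psmc2, a 19S ATPase, read 8.04 on premalignant array 1, against 9.30 on the nearest. Psmd9, a 19S chaperone, read 6.12 on premalignant array 1, against 5.85 on the nearest. Psma6 read 9.07 on wild type array 2, against 9.46 on the nearest. The call of Psmc2 between premalignant cells and lymphoma was lost under 11 alternatives, among them leaving out premalignant array 1. That of Psma6 between wild type and premalignant cells was not passed as reported. It was gained without premalignant array 1 and in 1 fit over all 3 groups.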

How the results depend on the processing

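No change or relation that was called, as reported or in an alternative run, reversed in sign. Some that were called in neither did. Without the 2 farthest arrays, r went from 0.33 to -0.015 for Tap1 with Psmb8. It went from -0.15 to 0.15 for the actin 3′ minus 5′ difference with Psmb10. Of the alternatives for single members, 1998 kept the call or its absence, 152 lost it and 56 gained one. For listed genes that are no members, 1611 kept it, 93 lost it and 20 gained one. For counts, differences and relations, 251 stayed, 28 counts moved and 14 calls were lost.

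From wild type to premalignant cells the core subunits that rose numbered 1 with spike centring and 11 in 1 fit over all groups, against 7 as reported, and 4 to 16 on leaving out an array in turn. The induced members that fell numbered 1 without a filter, 0 with spike centring, 1 in 1 fit over all groups and 0 with the replicate block, against 2, and 0 to 2 on leaving out an array. Over all genes limma called 1725 as reported, against 455 higher and 105 lower with spike centring. From premalignant cells to lymphoma it called 1597 genes higher and 1114 lower as reported, 1640 and 3289 of 12393 tested without a filter, 1209 and 562 with spike centring and 975 and 702 with the replicate block. Against wild type it called 2045 and 1911 lymphoma genes as reported, and 2124 and 5797 without a filter. From premalignant cells to lymphoma 8 core subunits rose with spike centring and 8 with the replicate block, against 13; 2 fell without a filter and 0 with spike centring, against 1. The induced members that fell numbered 1 with spike centring and 1 without wild type array 2 and premalignant array 1 together, against 3, and 1 to 2 on leaving out an array in turn, with 1 without premalignant array 1. From wild type to lymphoma 1 core subunit fell without a filter, against 0, and 1 induced member fell with spike centring, against 3. The count without lymphoma 1, an alternative added after seeing the data because that lymphoma correlated least with its group, was 11 core subunits higher than in premalignant cells and 26 higher than in wild type.

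Same-numbered wild type and premalignant arrays 1 to 4 deviated together with correlations of 0.105, -0.064, 0.19 and 0.21, and over the other comparisons the correlations ran from -0.11 to 0.066, so the numbers were not taken as pairs. With the replicate block the first-step changes of Psmb8 and Psmb9 had limma adjusted p = 0.081 and 0.075. With the replicate block the sign-flip test of 4 or 5 pairs cannot go below p = 0.125 or 0.0625. Under the block the changes in induced over constitutive difference were -0.99, -0.51 and -1.47 for Psmb8, -0.97, -1.65 and -2.47 for Psmb9, and -0.78 and -1.04 (both against wild type) for Psmb10. Without wild type array 2 and premalignant array 1 together the changes from wild type to premalignant were -1.01, -0.93 and -0.71 for Psmb8, Psmb9 and Psmb10, with an adjusted exact permutation p of 0.0643 in a design too small to pass. Without the 2 farthest arrays, r was 0.62 for Irf1 with Psmb10, 0.63 for Tap1 with Psmb9 and 0.42 for Tap1 with Psme1. Where not given by the number of genes or arrays, the cause was not tested.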

Other observations

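Psmb8, Psmb9, Psmb10 and Psme1 were each centred and scaled over the 13 lymphomas and averaged. Their mean was compared with each of 6390 tested genes that are no members. The comparison is a description, and joint or separate normalisation of the arrays is not stated. The highest Pearson correlations were those of Parp4 (0.90), which encodes a poly(ADP-ribose) polymerase of vault particles, Rab11b (0.86), Tlnrd1 (0.85), Rab8a (0.82) and H2-D1 (0.82), an MHC class I heavy chain. They were followed by Epb41l2 (0.81), Fzr1 (0.81), Csk (0.80), H2-M3 (0.80), a non-classical class I heavy chain, and Ap2m1 (0.80). Tap1 came at rank 43 (0.68), Tapbp at rank 64 (0.65), Tap2 at rank 153 (0.57) and B2m at rank 231 (0.52). Irf8 (0.39), Irf9 (0.27), Irf1 (0.22) and Nfe2l1 (0.19) came at ranks 575, 1158, 1445 and 1597. No p-value was computed for these correlations.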
